A study of Homo sapiens with 24 samples.

Results

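The mRNAs of the 10 EXOSC genes, EXOSC1 to EXOSC10, were followed through 4 fractions of a sucrose density gradient. They encode the core subunits and the EXOSC10 exonuclease of the RNA exosome, and were picked by symbol from the 61853 gene rows of the count table. All 10 were among the 18907 genes abundant enough to be tested. The cells were 293T, a human embryonic kidney line, in which the exonuclease gene DIS3 had been knocked down with the hairpin labelled sh2 and a DIS3 protein put back, either the D146N mutant or the wild type (WT). Both groups of cells therefore carried the knockdown, and no cells without it were compared. Cytoplasmic RNA, depleted of ribosomal RNA, was sequenced from fractions 3, 4, 7 and 8 of the gradient, with 3 libraries in each of the 8 groups: D146N fractions 3, 4, 7 and 8 and WT fractions 3, 4, 7 and 8. The libraries are labelled as biological replicates, without saying whether the cultures were separate, so the p-values measure the spread between these libraries. How the knockdown and rescue were delivered and whether the cells were 1 clone is not given in the sources used here.

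The RNA exosome is a ring-shaped complex that degrades and trims RNA from its 3' end. In the human complex a barrel of 6 RNase PH-like subunits, built as the pairs EXOSC4 with EXOSC9, EXOSC8 with EXOSC5 and EXOSC6 with EXOSC7, carries a cap of 3 RNA-binding subunits, EXOSC1, EXOSC2 and EXOSC3. The barrel itself has lost catalytic activity in humans, which is supplied by DIS3, whose endonuclease domain holds the aspartate replaced in D146N, and by EXOSC10 in the nucleus. The values here are abundances of the mRNAs for these subunits in gradient fractions, not of the proteins or of the assembled complex.

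Library totals ran from 21.2 to 33 M counts, and the EXOSC rows held 31 to 1596 counts per library. A level is given as CPM, the counts scaled to a common library total, and a fold change as a log2 difference after TMM scaling, which is meant to hold the typical gene near no change. The 2 scales differed widely here. TMM factors averaged 0.366, 0.366, 2.81 and 2.76 in D146N fractions 3, 4, 7 and 8, against 2.51, 2.51, 0.365 and 0.426 in the same WT fractions. A fold change after TMM therefore says how an mRNA moved relative to other genes, and can have the opposite sign to the ratio of its CPM values, so both are given. The choice of libraries also moved the TMM scale: leaving out any 1 of the 12 libraries of D146N fractions 7 and 8 and WT fractions 3 and 4 moved the median of all genes by over 0.1 in some contrasts. That median is given below for some of the results with 1 library left out. Elsewhere a moved scale and a change in the mRNA itself cannot be told apart. The WT fraction 8 replicate 3 library stood apart from the others of its group, with a TMM factor of 0.531 against 0.375 and 0.371, and the results that it moved most are given with and without it. The fraction labels of the genotypes ran opposite ways in the data, so a genotype difference within a labelled fraction and a difference in how fractions were numbered or collected cannot be told apart. DIS3 itself, whose row counts endogenous and any rescue transcripts together, differed between D146N and WT by 0.08 (SE 0.05, adjusted p = 0.285) on the log2 scale in sums of the 4 fractions by edgeR's quasi-likelihood test. Of the markers listed for 293T, VIM was detected at 15.9 to 227 CPM, KRT8 at 2.62 to 40.4 CPM and KRT18 at 1.06 to 28.9 CPM. NEFL and NEFM, also listed for 293T, were at 0 in some libraries and reached at most 2.17 and 3.11 CPM. The summed leukocyte markers stayed at 2.11 CPM or less with CD3E at 0, and the summed erythroid markers at 2.78 CPM or less with ALAS2 at 0.

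Promoter starts are shown for members at the ends of the fraction contrasts described below that have an entry in the RefSeq table, EXOSC8 on one side and EXOSC6, EXOSC9 and EXOSC10 on the other. Each runs 5' to 3' on the strand of the gene from 100 bases before to 30 bases from the annotated transcription start, from RefSeq GRCh38.p14. They lie at chr13:37000686-37000815 (plus strand) for EXOSC8, chr16:70251911-70252040 (minus strand) for EXOSC6, chr4:121801223-121801352 (plus strand) for EXOSC9 and chr1:11099840-11099969 (minus strand) for EXOSC10. Capitals mark a motif searched for, AAGATGGC in EXOSC8 and the reverse complement of GCATGCGC in EXOSC10.
EXOSC8: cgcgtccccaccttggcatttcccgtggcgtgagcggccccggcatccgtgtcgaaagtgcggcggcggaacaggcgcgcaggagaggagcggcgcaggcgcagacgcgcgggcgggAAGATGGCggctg
EXOSC6: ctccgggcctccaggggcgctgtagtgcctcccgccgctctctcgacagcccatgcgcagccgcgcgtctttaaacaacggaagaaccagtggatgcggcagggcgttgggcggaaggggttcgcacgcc
EXOSC9: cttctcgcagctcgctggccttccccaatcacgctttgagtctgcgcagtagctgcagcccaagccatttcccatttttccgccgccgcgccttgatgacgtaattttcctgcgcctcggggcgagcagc
EXOSC10: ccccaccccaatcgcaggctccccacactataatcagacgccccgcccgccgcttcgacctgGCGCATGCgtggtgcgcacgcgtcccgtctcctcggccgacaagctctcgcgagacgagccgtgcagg
The search covered 300-base windows, from 250 bases before to 50 bases after a start, on both strands. Of 35116 such windows in the table, 10.3% held CCGGAAG (letters of the ETS family motif), 2.89% held AAGATGGC (YY1) and 3.05% held GCATGCGC (NRF1). Of the 8 EXOSC genes with an entry in the table, none held the ETS letters, EXOSC2 and EXOSC8 held the YY1 letters and EXOSC10 held the NRF1 letters. These are matches of letters and say nothing of a factor's binding.

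The genes lie on 9 chromosomes. On hg38 (positions from RefSeq GRCh38.p14) the cap genes span chr10:97435909-97446006 for EXOSC1, chr9:130693760-130704894 for EXOSC2 and chr9:37779714-37785092 for EXOSC3. The barrel genes span chr8:144064056-144080648 for EXOSC4, chr4:121801323-121817021 for EXOSC9, chr19:41386374-41397359 for EXOSC5, chr13:37000786-37009614 for EXOSC8, chr16:70246778-70251940 for EXOSC6 and chr3:44976244-45012668 for EXOSC7, and EXOSC10 spans chr1:11066618-11099869. Some overlap a neighbour: EXOSC9 shares 578 bases with CCNA2, EXOSC8 shares 303 bases with SUPT20H, EXOSC10 shares 195 bases with EXOSC10-AS1, and EXOSC4 shares 2650 bases with LOC124902038 and 69 bases with MIR6847. The strand setting of the counting is not given in the sources used here, so reads of these stretches cannot be assigned to one gene of the pair. The pseudogene rows EXOSC3P1 and EXOSC3P2 reached at most 2 and 1 counts in any library.

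By group means on library totals, every EXOSC mRNA was more abundant in the same 4 groups than in the other 4. The summed EXOSC level was 61.6 ± 3.61, 64.1 ± 2.52, 342 ± 5.62 and 337 ± 4.17 CPM in D146N fractions 3, 4, 7 and 8, against 301 ± 15.8, 296 ± 14.9, 65.2 ± 2.12 and 80.3 ± 24.4 CPM in the same WT fractions (mean ± SD, n = 3 each). The WT fraction 8 libraries gave 68.9, 63.7 and 108 CPM in replicates 1, 2 and 3. The mRNAs were thus high in fractions 7 and 8 of D146N cells and in fractions 3 and 4 of WT cells. Most genes did the same on this scale. Of all genes tested, 88.9% were called higher in fractions 7 and 8 than in 3 and 4 of D146N cells. In WT cells 83.6% were called lower in fractions 7 and 8. The size of the gap differed from member to member, and that spread is the main subject of the results below. After TMM the members at either end of it lay inside the spread of all genes tested, as given with each fraction contrast. Counts were not divided by transcript length, so levels are compared between groups for 1 mRNA and not between mRNAs. These are bulk samples scaled to a total, so fewer cells, less of an mRNA per cell and more of other RNA in a fraction cannot be told apart.

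**Figure D1:**
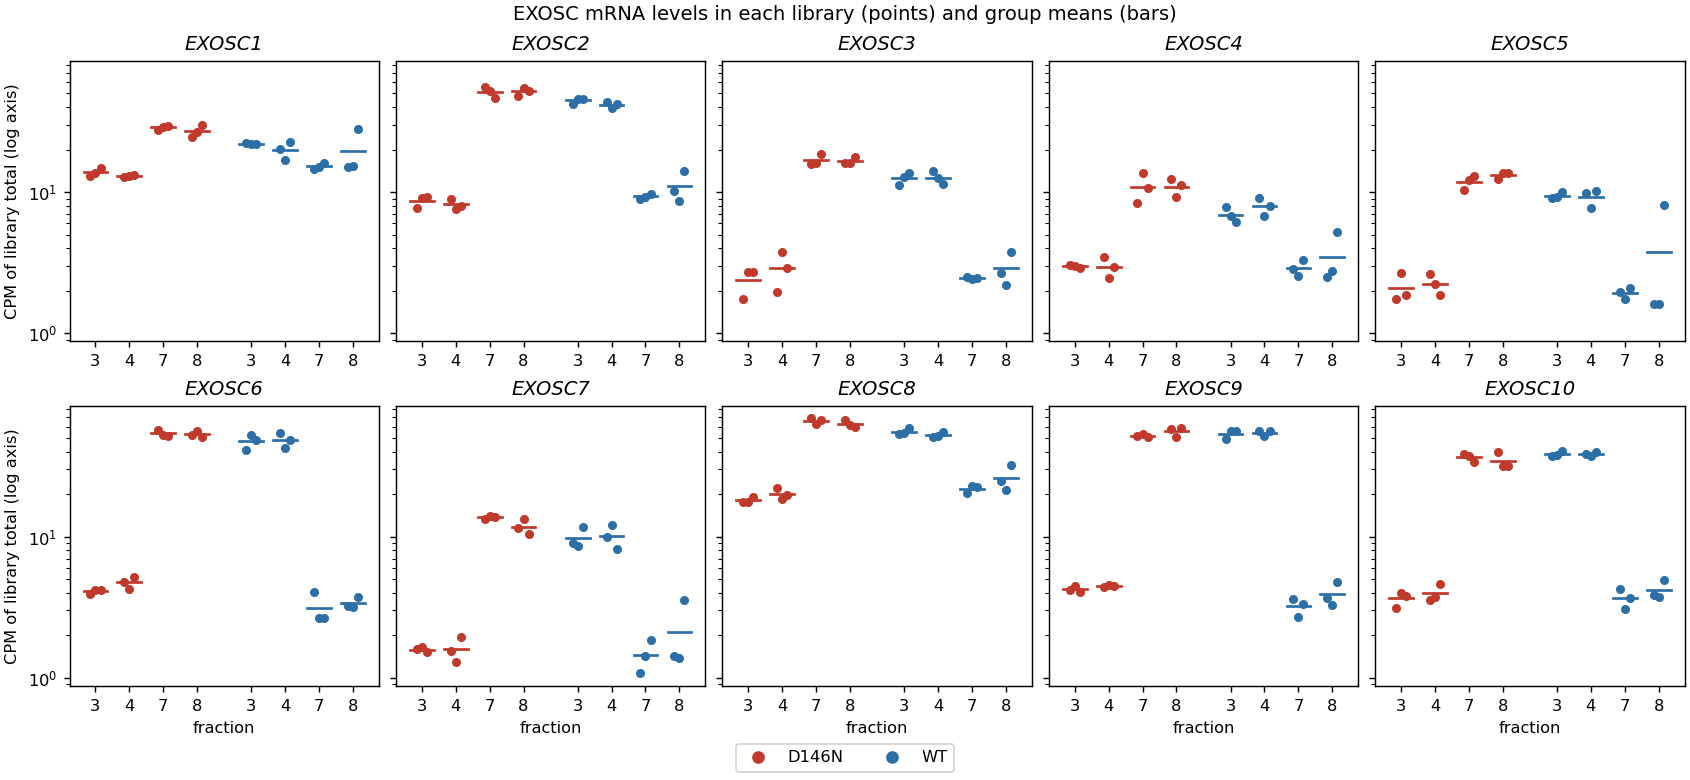
Level of each EXOSC mRNA in CPM of the library total on a log axis, by fraction, with D146N libraries left of WT libraries. Points are the 3 libraries of a group and bars their mean; the gap between the high and the low groups is narrow for EXOSC1 and wide for EXOSC6 and EXOSC9, and 1 WT fraction 8 library lies above its group in several panels.

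Of the cap subunits, which bind RNA at the mouth of the barrel, EXOSC1 (CSL4) had the smallest gap. EXOSC1 measured 12.9, 13.7 and 14.7 CPM in fraction 3, 12.8, 13 and 13.1 CPM in fraction 4, 27.8, 29 and 29.5 CPM in fraction 7 and 24.5, 26.5 and 29.97 CPM in fraction 8 of D146N cells. In WT cells it measured 22.4, 22 and 21.8 CPM in fraction 3, 20.2, 16.8 and 22.8 CPM in fraction 4, 14.6, 15.2 and 16.2 CPM in fraction 7 and 15, 15.3 and 28 CPM in fraction 8. The D146N fraction 7 and 8 libraries lay above all others except WT fraction 8 replicate 3, at 28 CPM, while the other libraries of that group were at the level of WT fraction 7. EXOSC2 (RRP4) had a gap of several fold: it averaged 8.66 ± 0.834, 8.18 ± 0.73, 51.4 ± 4.51 and 51.7 ± 3.53 CPM in D146N fractions 3, 4, 7 and 8, against 44.6 ± 2.13, 41.7 ± 1.95, 9.32 ± 0.388 and 11 ± 2.82 CPM in WT (SD, n = 3). EXOSC3 (RRP40) had the same shape at 2.4 ± 0.566, 2.87 ± 0.891, 16.8 ± 1.55 and 16.7 ± 0.985 CPM in D146N, against 12.5 ± 1.29, 12.7 ± 1.42, 2.47 ± 0.033 and 2.89 ± 0.805 CPM in WT. For both, D146N fractions 7 and 8 lay above WT fractions 3 and 4 without overlap, WT fractions 3 and 4 lay above the 4 low groups, and low groups next to each other in level overlapped.

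In the EXOSC4 and EXOSC9 pair of the barrel, the partners behaved differently. EXOSC9 (RRP45) measured 4.19, 4.49 and 4.08 CPM in fraction 3, 4.38, 4.57 and 4.47 CPM in fraction 4, 51.6, 53.2 and 51.2 CPM in fraction 7 and 57.9, 51 and 58.6 CPM in fraction 8 of D146N cells. In WT cells EXOSC9 measured 49.6, 55.8 and 55.9 CPM in fraction 3, 56.2, 51.4 and 56.4 CPM in fraction 4, 3.6, 2.71 and 3.32 CPM in fraction 7 and 3.67, 3.29 and 4.77 CPM in fraction 8. Groups next to each other in level overlapped within the high and within the low groups, with a wide gap between. EXOSC4 (RRP41) averaged 2.98 ± 0.0806, 2.96 ± 0.486, 11 ± 2.69 and 10.9 ± 1.59 CPM in the 4 D146N fractions, against 6.93 ± 0.864, 7.92 ± 1.1, 2.9 ± 0.371 and 3.48 ± 1.48 CPM in the 4 WT fractions. Its low groups overlapped. Among its high groups D146N fraction 7, at 8.36 CPM or more, overlapped WT fraction 4, which reached 9.01 CPM, and lay above WT fraction 3, at 7.85 CPM or less. D146N fraction 8, at 9.19 CPM or more, lay above both WT fractions.

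In the EXOSC8 and EXOSC5 pair the gap between high and low groups was again unequal. EXOSC8 (RRP43) measured 17.5, 17.7 and 19.2 CPM in fraction 3, 22.2, 18.4 and 19.6 CPM in fraction 4, 68.9, 62.9 and 66.8 CPM in fraction 7 and 66.8, 61.4 and 59.6 CPM in fraction 8 of D146N cells. WT cells gave EXOSC8 levels of 53, 54.2 and 59.1 CPM in fraction 3, 50.6, 51.6 and 55.2 CPM in fraction 4, 20.2, 22.8 and 22.3 CPM in fraction 7 and 24.8, 21.5 and 32.1 CPM in fraction 8. EXOSC5 (RRP46) averaged 2.09 ± 0.501, 2.23 ± 0.367, 11.9 ± 1.29 and 13.3 ± 0.737 CPM in D146N fractions 3, 4, 7 and 8, against 9.46 ± 0.504, 9.25 ± 1.31, 1.93 ± 0.177 and 3.78 ± 3.75 CPM in WT. The large SD of WT fraction 8 came from 1 library: its EXOSC5 values were 1.61, 1.61 and 8.11 CPM, the last being replicate 3, which alone reached the range of WT fractions 3 and 4. Both mRNAs were highest in D146N fractions 7 and 8, without overlap with WT fractions 3 and 4.

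The third barrel pair joins EXOSC6 (MTR3) with EXOSC7 (RRP42). EXOSC6 measured 3.91, 4.2 and 4.16 CPM in fraction 3, 4.79, 4.28 and 5.19 CPM in fraction 4, 57.1, 52.6 and 52 CPM in fraction 7 and 52.6, 56 and 50.5 CPM in fraction 8 of D146N cells. Among WT cells it measured 41.3, 52.6 and 48.5 CPM in fraction 3, 54.2, 42.5 and 48.5 CPM in fraction 4, 4.05, 2.66 and 2.67 CPM in fraction 7 and 3.2, 3.18 and 3.76 CPM in fraction 8. In EXOSC6 the high groups overlapped each other, and among the low groups D146N fraction 4 lay above the rest without overlap, while WT fraction 7 replicate 1, at 4.05 CPM, lay within D146N fraction 3. EXOSC7 averaged 1.58 ± 0.0615, 1.59 ± 0.317, 13.8 ± 0.342 and 11.8 ± 1.52 CPM in the 4 D146N fractions, against 9.79 ± 1.7, 10.04 ± 1.93, 1.46 ± 0.393 and 2.11 ± 1.24 CPM in the 4 WT fractions, and its replicate 3 of WT fraction 8 again stood out (1.42, 1.37 and 3.55 CPM in replicates 1, 2 and 3). EXOSC10 (RRP6), the 3' to 5' exonuclease that joins the complex in the nucleus, measured 3.12, 4.01 and 3.83 CPM in fraction 3, 3.53, 3.73 and 4.62 CPM in fraction 4, 38.3, 37.1 and 33.9 CPM in fraction 7 and 39.6, 31.5 and 31.5 CPM in fraction 8 of D146N cells. Its WT levels were 37.4, 38.2 and 40.7 CPM in fraction 3, 38.4, 37.3 and 40.00 CPM in fraction 4, 4.25, 3.06 and 3.66 CPM in fraction 7 and 3.84, 3.74 and 4.97 CPM in fraction 8. As in EXOSC9, neighbours in level overlapped within the high and within the low groups of EXOSC10.

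The first question was where in the sampled gradient each mRNA lay, asked as fractions 7 and 8 against 3 and 4 within a genotype. In D146N cells EXOSC6, EXOSC9 and EXOSC10 were higher and EXOSC1, EXOSC2, EXOSC4 and EXOSC8 lower after TMM, that is relative to the typical gene. The log2 fold change was lowest for EXOSC1 at -1.87 (SE 0.08, adjusted p = 7.43e-22), then EXOSC8 at -1.17 (SE 0.06, adjusted p = 3.92e-19) and EXOSC4 at -1.05 (SE 0.13, adjusted p = 7.51e-09). On the other side, EXOSC9 had 0.70 (SE 0.07, adjusted p = 2.83e-10), EXOSC6 0.67 (SE 0.09, adjusted p = 7.86e-08) and EXOSC10 0.29 (SE 0.09, adjusted p = 0.00586). EXOSC2, at -0.31 (SE 0.07, adjusted p = 1.27e-04), lost its call without D146N fraction 7 replicate 2 (-0.16, adjusted p = 0.0518), fraction 7 replicate 3 (-0.13, adjusted p = 0.113) or fraction 8 replicate 1 (-0.13, adjusted p = 0.109), and the median of all genes was then 0.24 in place of 0.10. With that same shift EXOSC10 had 0.43 to 0.47 without D146N fraction 7 replicate 2 or 3 or fraction 8 replicate 2 or 3. EXOSC3 (-0.25), EXOSC5 (-0.39) and EXOSC7 (0.07) did not pass, although EXOSC3 passed without D146N fraction 3 replicate 1 (-0.32, adjusted p = 0.0251) or fraction 4 replicate 1 (-0.35, adjusted p = 0.0107). The count was 3 higher and 4 lower of 10, where 60.2% of all genes tested were called (29.9% higher and 30.3% lower). On library totals all 10 were higher, as were 88.9% (of 92.9% called) of all genes, with log2 fold changes between 1.06 for EXOSC1 and 3.63 for EXOSC9. The median over the members was -0.28 after TMM and 2.64 on totals, beside 0.10 and 3.00 over all genes tested. After TMM 13.89% of all genes had a lower value than EXOSC1, 59.75% a lower value than EXOSC10 and 81.85% a lower value than EXOSC9.

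In WT cells the members other than EXOSC7 took the opposite sides. Relative to the typical gene EXOSC1 to EXOSC5 and EXOSC8 were higher in fractions 7 and 8 and EXOSC6, EXOSC9 and EXOSC10 lower. The log2 fold change was 2.38 (SE 0.08, adjusted p = 2.79e-25) for EXOSC1, 1.5 (SE 0.06, adjusted p = 1.19e-22) for EXOSC8, 1.44 (SE 0.13, adjusted p = 1.49e-12) for EXOSC4, 0.83 (SE 0.23, adjusted p = 0.00358) for EXOSC5 and 0.58 (SE 0.07, adjusted p = 8.93e-10) for EXOSC2. EXOSC3, at 0.43 (SE 0.12, adjusted p = 0.00158), missed the threshold without WT fraction 4 replicate 3 (0.27, adjusted p = 0.0514), with the median of all genes at -0.28 in place of -0.18. On the lower side, EXOSC9 had -1.26 (SE 0.07, adjusted p = 2.32e-17), EXOSC6 -1.2 (SE 0.09, adjusted p = 6.42e-14) and EXOSC10 -0.63 (SE 0.09, adjusted p = 4.84e-08). EXOSC7, at 0.15 (SE 0.14, adjusted p = 0.336), did not pass. That made 6 higher and 3 lower of 10, beside 73.9% of all genes called (34.6% higher and 39.3% lower). Without WT fraction 8 replicate 3 the same 6 and 3 passed, and EXOSC5 had 0.34 (adjusted p = 0.0162). On library totals all 10 were lower in fractions 7 and 8, as were 83.6% (of 91.3% called) of all genes, with EXOSC1 nearest to 0 at -0.28. Without WT fraction 8 replicate 3 all 10 were again lower on totals, and EXOSC1 had -0.46 (adjusted p = 2.63e-08), a comparison added after seeing the data. Medians over the members were 0.50 after TMM and -2.17 on totals, beside -0.18 and -2.83 over all genes. After TMM 86.37% of all genes had a lower value than EXOSC1 and 15.85% a lower value than EXOSC9.

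**Figure D2:**
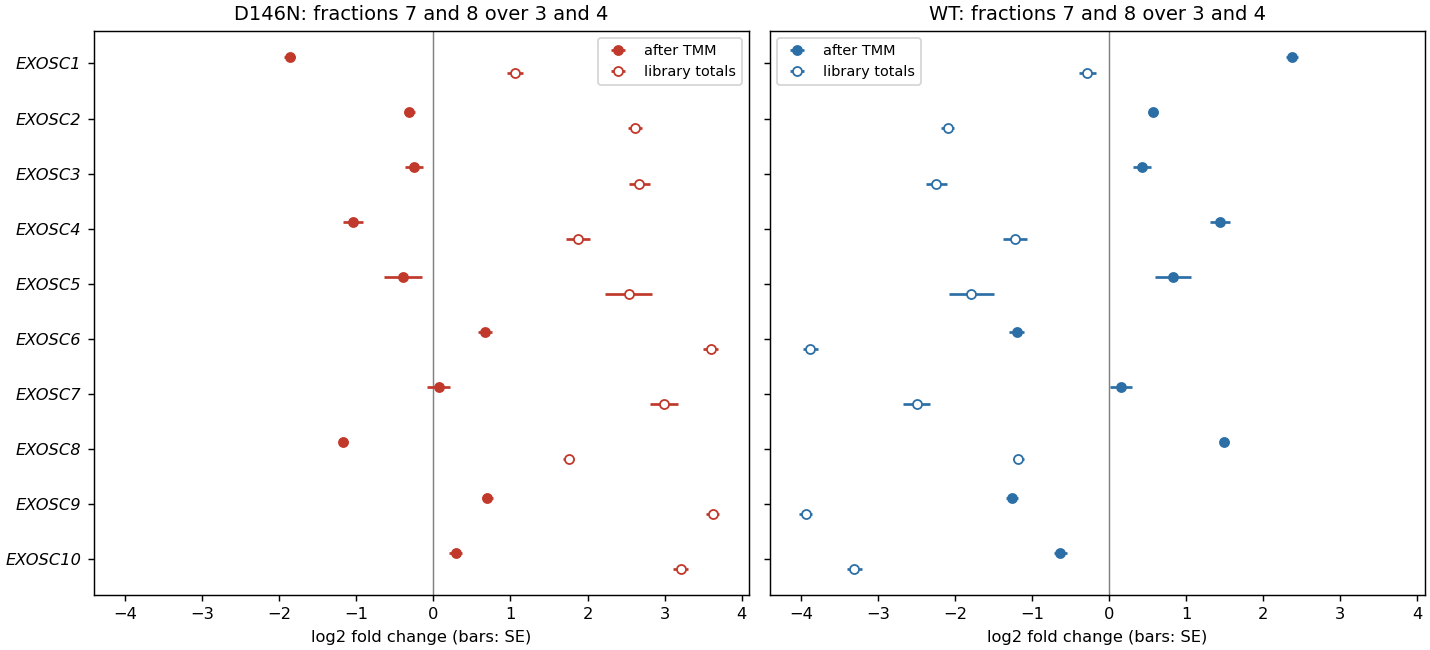
Log2 fold change of each EXOSC mRNA in fractions 7 and 8 over 3 and 4, in D146N cells (left) and WT cells (right). Filled points are after TMM and open points on library totals, with bars for the SE; after TMM the members lie on both sides of 0 and in opposite order in the 2 genotypes, from -1.87 and 2.38 for EXOSC1 to 0.70 and -1.26 for EXOSC9, while on totals all 10 lie on one side.

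The difference between these contrasts, D146N minus WT, was tested directly as an interaction. By edgeR 9 of the 10 members passed, 3 higher and 6 lower, where 77.1% of all genes passed (41.7% higher and 35.4% lower). EXOSC1 differed most, at -4.24 (SE 0.11, adjusted p = 1.20e-28) on the log2 scale, followed by EXOSC8 at -2.67 (SE 0.08, adjusted p = 6.98e-26) and EXOSC4 at -2.48 (SE 0.18, adjusted p = 6.88e-15). EXOSC5 stood at -1.23 (SE 0.34, adjusted p = 0.00294) and EXOSC2 at -0.89 (SE 0.09, adjusted p = 1.31e-10). Without WT fraction 8 replicate 3, EXOSC5 had -0.72 (adjusted p = 2.40e-04), and without D146N fraction 7 replicate 3 or fraction 8 replicate 1 EXOSC2 had -0.58. EXOSC3, at -0.68 (SE 0.17, adjusted p = 4.80e-04), was not called without WT fraction 3 replicate 1 (-0.37, adjusted p = 0.0512) or without WT fraction 4 replicate 3 (-0.37, adjusted p = 0.0515), and the median of all genes was then 0.59 in place of 0.33. The positive values were 1.96 (SE 0.10, adjusted p = 1.10e-18) for EXOSC9, 1.87 (SE 0.13, adjusted p = 2.85e-15) for EXOSC6 and 0.92 (SE 0.12, adjusted p = 3.34e-08) for EXOSC10, while EXOSC7 had -0.08 (SE 0.20, adjusted p = 0.717). On library totals all 10 were positive, as were 88.1% (of 94.5% called) of all genes, so EXOSC1 to EXOSC5, EXOSC7 and EXOSC8 change sign with the scaling. EXOSC7 does so from a value near 0 that was not called. EXOSC6, EXOSC9 and EXOSC10 kept their sign, with 7.48, 7.56 and 6.52 on totals. EXOSC1 had 1.34 on totals and 1.52 (adjusted p = 1.42e-21) without WT fraction 8 replicate 3. After TMM 13.64% of all genes had a lower interaction value than EXOSC1, 61.8% a lower value than EXOSC10 and 83.49% a lower value than EXOSC9.

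D146N against WT within each labelled fraction gave the same division of the members, with signs that turned between fractions 3 and 4 and fractions 7 and 8. These contrasts use the same libraries as the fraction contrasts above and are not separate evidence. EXOSC7 was the exception: it was called in none of them and was positive in fractions 3, 4 and 7. In fraction 3, EXOSC1, EXOSC2, EXOSC4 and EXOSC8 were higher in D146N and EXOSC6, EXOSC9 and EXOSC10 lower after TMM, 7 of 10 beside 49.7% of all genes called (25.8% higher and 23.9% lower). EXOSC1 had 2.1 (SE 0.11, adjusted p = 1.52e-18) and EXOSC9 -0.88 (SE 0.10, adjusted p = 6.40e-09). EXOSC3, at 0.40 (adjusted p = 0.0552), passed at 0.55 (adjusted p = 0.0146) without D146N fraction 3 replicate 1. In fraction 4 the same 7 and EXOSC3 passed, 5 higher and 3 lower beside 48.5% of all genes (25.7% higher and 22.8% lower). EXOSC3 there had 0.63 (SE 0.17, adjusted p = 0.00223), and was not called without D146N fraction 4 replicate 2 (0.35, adjusted p = 0.116) or without WT fraction 4 replicate 3 (0.43, adjusted p = 0.0557). EXOSC1 in fraction 4 had 2.16 (SE 0.11, adjusted p = 9.67e-19) and EXOSC8 1.4 (SE 0.08, adjusted p = 1.23e-16). On library totals all 10 were lower in D146N in both fractions, beside 84.7% (of 88.6% called) of all genes in fraction 3 and 84.3% (of 88.1% called) in fraction 4, so the 4 and 5 higher calls turn to lower on that scale.

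In fraction 7 the signs after TMM were the other way round: EXOSC6, EXOSC9 and EXOSC10 were higher in D146N and EXOSC1, EXOSC2, EXOSC4 and EXOSC8 lower, 7 of 10 beside 63.5% of all genes called (32.4% higher and 31.1% lower). EXOSC6 had 1.15 (SE 0.13, adjusted p = 1.90e-09), EXOSC9 1.07 (SE 0.11, adjusted p = 6.10e-11) and EXOSC1 -2.04 (SE 0.11, adjusted p = 1.65e-18). EXOSC10, at 0.37 (SE 0.12, adjusted p = 0.00927), missed the threshold without WT fraction 7 replicate 2 (0.26, adjusted p = 0.101) and had 0.58 without D146N fraction 7 replicate 3. With all libraries kept, the median of all genes was 0.16 in fraction 7 and 0.11 in fraction 8. EXOSC10 lay near the middle of all genes, of which 56.66% in fraction 7 and 56.59% in fraction 8 had a lower value. In fraction 8, 3 were higher and 5 lower beside 65.1% of all genes (32.5% higher and 32.6% lower). EXOSC1 had -2.19 (SE 0.11, adjusted p = 1.75e-19) and EXOSC6 1.27 (SE 0.13, adjusted p = 1.51e-10). The eighth call was EXOSC5, at -0.78 (SE 0.31, adjusted p = 0.0342); it turned to 0.19 (adjusted p = 0.418) without WT fraction 8 replicate 3, which left 7 calls, and it also missed the threshold when any 1 of the 3 D146N fraction 8 libraries was left out. On library totals all 10 were higher in D146N in fractions 7 and 8, as were 83.6% (of 89% called) and 80.9% (of 87% called) of all genes, so the lower calls turn to higher on that scale. EXOSC1 on totals had 0.47 in fraction 8 with all libraries and 0.83 (adjusted p = 1.65e-10) without WT fraction 8 replicate 3.

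A view that does not depend on the scaling between libraries is the share of each mRNA in the summed EXOSC counts of its own library. EXOSC1 made up 22.4% ± 0.647, 20.3% ± 0.971, 8.41% ± 0.401 and 8.01% ± 0.886 of the EXOSC counts in D146N fractions 3, 4, 7 and 8, against 7.35% ± 0.49, 6.73% ± 0.75, 23.5% ± 0.62 and 23.9% ± 2.01 in the same WT fractions (SD, n = 3). EXOSC8 and EXOSC4 had the same shape. EXOSC8 averaged 19% in fractions 7 and 8 and 30.4% in 3 and 4 of D146N cells, against 33.3% and 18.1% in WT cells. The shares of EXOSC9, EXOSC6 and EXOSC10 ran the other way. EXOSC9 averaged 15.9% in fractions 7 and 8 and 6.96% in 3 and 4 of D146N cells, against 4.94% and 18.2% in WT cells. EXOSC6 averaged 15.7% and 7.03% in D146N, against 4.59% and 16% in WT. EXOSC7 went the same way by less, with 3.76% and 2.53% in D146N, against 2.36% and 3.34% in WT. EXOSC2 moved little, with 15.2% and 13.4% in D146N, against 14% and 14.5% in WT. Shares of a library sum to a fixed total, so 1 member's gain is another's loss and they show unequal change only. Of 40 exact two-sided permutation tests of D146N against WT, 10 members in 4 fractions, 29 reached p = 0.1, the smallest that 3 libraries against 3 allow, and none could pass 0.05; after Benjamini-Hochberg adjustment the lowest was 0.138.

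**Figure D3:**
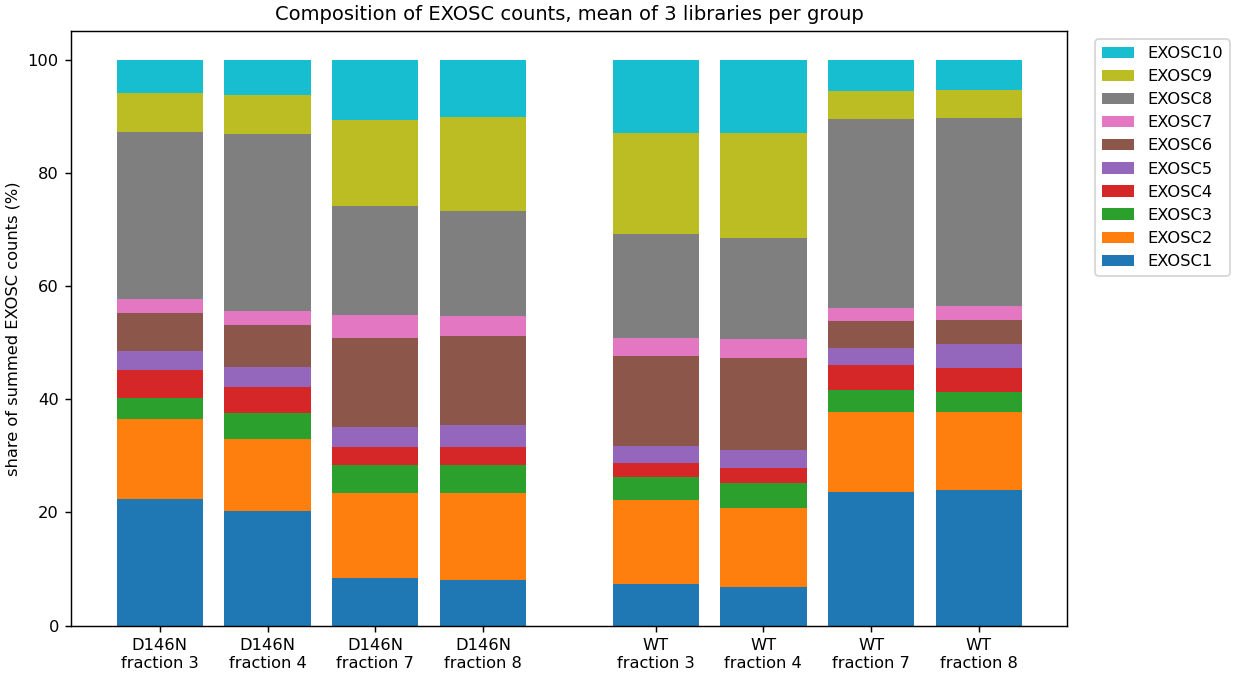
Mean share (%) of each EXOSC mRNA in the summed EXOSC counts of a library, as stacked bars for the 4 D146N groups and then the 4 WT groups, 3 libraries each. EXOSC1 fills 22.4% of the bar in D146N fraction 3 and 7.35% in WT fraction 3, and D146N fractions 7 and 8 have a make-up near that of WT fractions 3 and 4.

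The partners of a barrel pair are needed side by side in the protein complex, and the ratio of their counts in a library shows whether their mRNAs moved together. The EXOSC9 to EXOSC4 ratio was 1.38, 1.49 and 1.41 in fraction 3, 1.27, 1.85 and 1.51 in fraction 4, 6.17, 3.87 and 4.76 in fraction 7 and 4.71, 5.55 and 5.18 in fraction 8 of D146N cells. In WT cells this ratio was 6.31, 8.23 and 9.09 in fraction 3, 6.24, 7.56 and 7.1 in fraction 4, 1.26, 1.06 and 1.01 in fraction 7 and 1.47, 1.19 and 0.919 in fraction 8. It was thus high in D146N fractions 7 and 8 and WT fractions 3 and 4, and the high and low groups did not overlap. The EXOSC6 to EXOSC7 ratio went the same way by less, at 2.46, 2.56 and 2.73 in fraction 3, 3.1, 3.29 and 2.69 in fraction 4, 4.26, 3.74 and 3.77 in fraction 7 and 4.56, 4.17 and 4.86 in fraction 8 of D146N cells. WT cells gave 4.55, 6.14 and 4.13 in fraction 3, 5.49, 3.52 and 5.91 in fraction 4, 3.76, 1.86 and 1.44 in fraction 7 and 2.26, 2.32 and 1.06 in fraction 8. Here the ranges touched, as WT fraction 7 replicate 1 at 3.76 lay above WT fraction 4 replicate 2 at 3.52. The EXOSC8 to EXOSC5 ratio went the opposite way. It was 10.1, 6.62 and 10.3 in fraction 3, 8.53, 8.29 and 10.5 in fraction 4, 6.61, 5.12 and 5.17 in fraction 7 and 5.37, 4.48 and 4.35 in fraction 8 of D146N cells. The WT values were 5.83, 5.87 and 5.89 in fraction 3, 5.15, 6.65 and 5.42 in fraction 4, 10.3, 13.1 and 10.7 in fraction 7 and 15.4, 13.4 and 3.96 in fraction 8. The value of 3.96 in WT fraction 8 replicate 3 lay below every other library, beside 15.4 and 13.4 in the other libraries of its group. Apart from that library the ranges also touched, as D146N fraction 3 replicate 2 at 6.62 lay below WT fraction 4 replicate 2 at 6.65. Counts of the partners were not divided by transcript length, so a ratio is compared between groups and not read as a ratio of molecules.

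**Figure D4:**
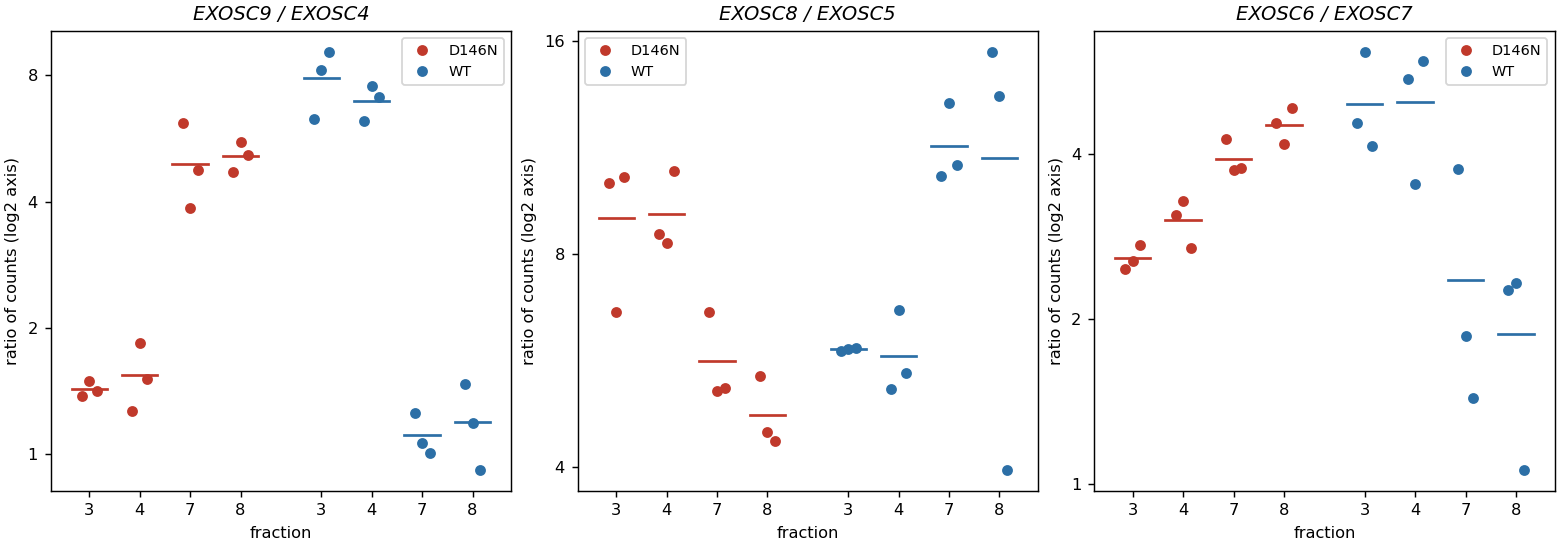
Ratio of counts between the partners of the barrel pairs in each library (points, log2 axis) with group means (bars), by fraction, D146N left of WT. EXOSC9 to EXOSC4 ran from 0.919 to 9.09 over the 24 libraries, and 1 WT fraction 8 library at 3.96 lies far below its group in the EXOSC8 to EXOSC5 panel.

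Since the levels of D146N fractions 7 and 8 lay nearest those of WT fractions 3 and 4, these were compared across the labels, a choice made with the results above known. After TMM, 3 of 10 members differed by edgeR, beside 17.3% of all genes (6.9% higher and 10.4% lower). EXOSC1 was higher in D146N fractions 7 and 8 than in WT fractions 3 and 4 at 0.26 (SE 0.07, adjusted p = 0.00999), and so was EXOSC4 at 0.41 (SE 0.12, adjusted p = 0.0105), while EXOSC10 was lower at -0.28 (SE 0.08, adjusted p = 0.00873). The EXOSC10 call was lost without D146N fraction 7 replicate 3, fraction 8 replicate 2 or fraction 8 replicate 3 (adjusted p from 0.0516 to 0.0543), and on library totals (-0.13, adjusted p = 0.275). EXOSC3 passed at 0.32 (adjusted p = 0.0474) without WT fraction 4 replicate 1. On library totals 5 members were higher in D146N and none lower, beside 22.1% of all genes (16.9% higher and 5.29% lower), and these were EXOSC1 at 0.41, EXOSC2 at 0.26, EXOSC3 at 0.41, EXOSC4 at 0.56 and EXOSC8 at 0.26. Between D146N fractions 3 and 4 and WT fractions 7 and 8, 4 of 10 differed, beside 29.2% of all genes (17.1% higher and 12.1% lower). EXOSC6, at 0.54 (SE 0.10, adjusted p = 1.15e-04), and EXOSC9, at 0.41 (SE 0.08, adjusted p = 2.33e-04), were higher in D146N. EXOSC1, at -0.25 (SE 0.07, adjusted p = 0.0106), and EXOSC8, at -0.22 (SE 0.06, adjusted p = 0.00437), were lower, and both lost their calls when no filter on low counts was used (adjusted p = 0.0654 and 0.105). On library totals EXOSC6 and EXOSC9 were higher and EXOSC1, EXOSC2 and EXOSC8 lower, beside 27% of all genes (12% higher and 15% lower). EXOSC2, at -0.26 (adjusted p = 0.0249) there, was not called without WT fraction 8 replicate 3 (-0.15, adjusted p = 0.124), and EXOSC1 had -0.37 and, without that library, -0.19 (adjusted p = 0.0392). After TMM the members' values ran from -0.28 to 0.41 in the first of these contrasts and from -0.25 to 0.54 in the second. By comparison, D146N against WT in fraction 8 spanned -2.19 to 1.27.

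When the counts of the 4 fractions were added up for each replicate number, so that each fraction weighed by its depth, D146N was compared with WT as 3 sums against 3. EXOSC3, EXOSC4, EXOSC6 and EXOSC7 were higher in D146N and none was lower, 4 of 10 beside 27.4% of 20562 genes tested (14.9% higher and 12.5% lower). The values were small, at 0.32 (SE 0.09, adjusted p = 0.0113) for EXOSC4, 0.30 (SE 0.08, adjusted p = 0.0077) for EXOSC3, 0.26 (SE 0.09, adjusted p = 0.0361) for EXOSC7 and 0.17 (SE 0.05, adjusted p = 0.00955) for EXOSC6. Only EXOSC6 of these kept its call whichever sum was left out. EXOSC7 missed it without any 1 of the sums of D146N replicates 1, 2 and 3 or WT replicates 1 and 2. EXOSC3 missed it without D146N replicate 3 (0.24, adjusted p = 0.0590) and EXOSC4 without WT replicate 2 (0.25, adjusted p = 0.0603). The remaining members ran from -0.14 for EXOSC10 to 0.21 for EXOSC5 and did not pass, although EXOSC5 passed at 0.39 (adjusted p = 0.00308) without WT replicate 3 and EXOSC10 passed at -0.19 (adjusted p = 0.0293) without D146N replicate 1. On library totals EXOSC2, EXOSC3, EXOSC4, EXOSC6 and EXOSC7 were higher and none lower, beside 30.8% of all genes (23% higher and 7.76% lower). The median over the members was 0.14 after TMM, beside 0.01 over all genes tested.

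**Figure D5:**
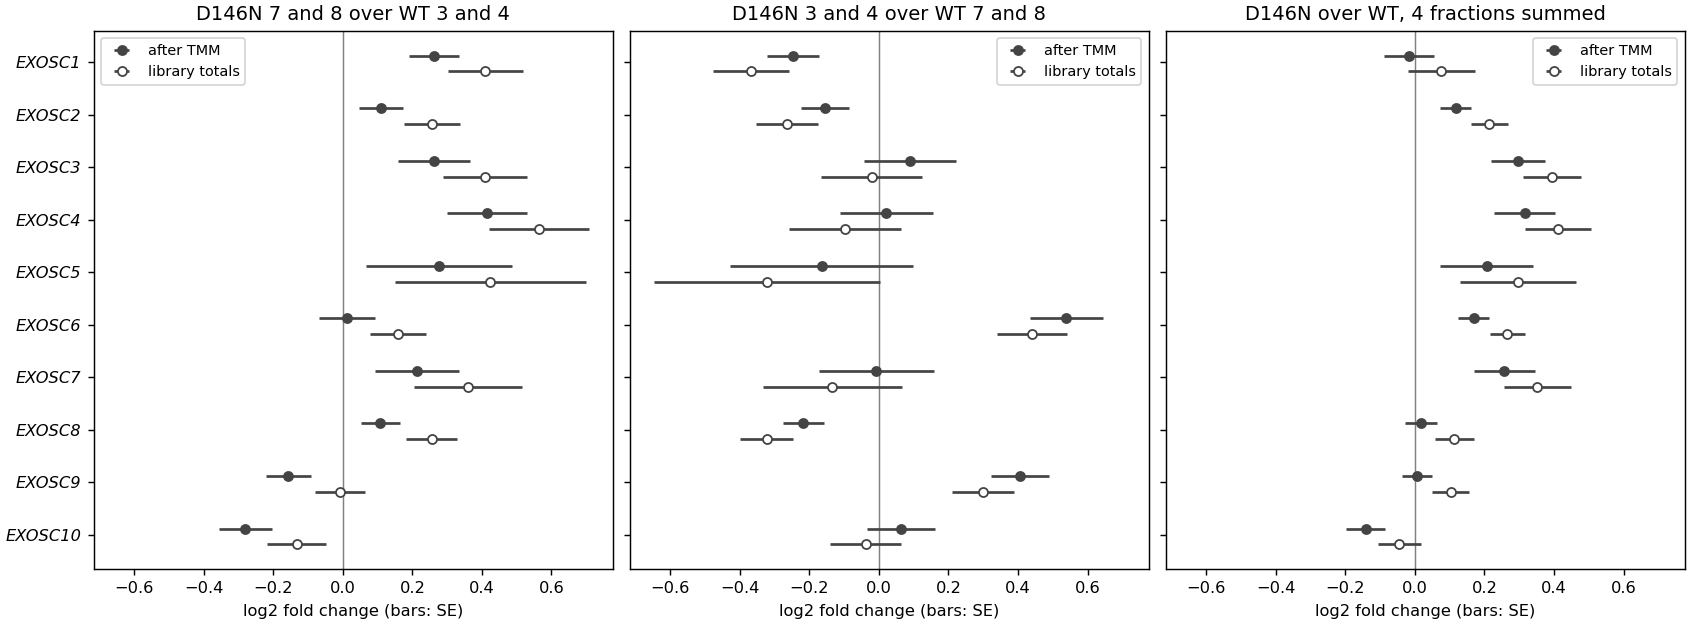
Log2 fold change, with bars for the SE, of each EXOSC mRNA in D146N fractions 7 and 8 over WT fractions 3 and 4, in D146N fractions 3 and 4 over WT fractions 7 and 8, and in D146N over WT for sums of the 4 fractions. Filled points are after TMM and open points on library totals. After TMM EXOSC6 reaches 0.54 in the middle comparison, and every member lies within 0.54 of 0 in all 3. On totals EXOSC4 reaches 0.56 in the first comparison.

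No difference between neighbouring fractions was detected in these mRNAs. Fraction 4 against 3 and fraction 8 against 7, in D146N and in WT, gave 0 of 10 members called by edgeR's quasi-likelihood test, 0 at an unadjusted p under 0.05, and 0 of 10 by DESeq2 and limma voom, where 0% of all genes tested were called by edgeR. On library totals 4 members passed an unadjusted p under 0.05 in WT fraction 8 against 7, none of them after adjustment. The member values ranged from -0.20 to 0.25 over the D146N contrasts and from -0.15 to 0.64 over the WT contrasts, the last being EXOSC5 with its high WT fraction 8 replicate 3.

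The other genes of the pathway were counted in lists set by symbol. Of the DIS3 family exonucleases, DIS3L2, which works apart from the exosome, stood on the side of EXOSC1, and DIS3 and its cytoplasmic paralogue DIS3L on the side of EXOSC9. In fractions 7 and 8 against 3 and 4 of D146N cells 2 of 3 were higher, DIS3 at 0.56 and DIS3L at 0.40, and DIS3L2 was lower at -0.88. In WT cells DIS3L2 was higher at 1.32, and DIS3 at -1.48 and DIS3L at -1.01 were lower. Of 12 nuclear cofactors, 2 were higher and 2 lower in the D146N contrast, among them C1D, a small protein that binds EXOSC10, at -1.0, and the poly(A) polymerase TENT4B at 0.74. In the WT contrast 5 were higher and 6 lower, with C1D at 2.6 and the exosome helicase MTREX at -0.78. Of the 4 genes of the SKI complex, which feeds RNA to the cytoplasmic exosome, and its bridge HBS1L, 3 were higher and none lower in D146N, with the helicase SKIC2 at 0.58. In WT none was higher and 2 were lower, SKIC2 at -1.25 and its partner SKIC3 at -0.78. In sums of the 4 fractions no DIS3 family member passed. Of the cofactors 3 were lower in D146N, among them ZFC3H1, a scaffold of the nuclear PAXT connection, at -0.39 and MTREX at -0.22. Of the SKI list 2 were higher, HBS1L at 0.23 and SKIC8 at 0.20. These are log2 fold changes after TMM, called at an adjusted p under 0.05 by edgeR. The list counts stand beside 60.2% of all genes called in the D146N contrast (29.9% higher and 30.3% lower). In the WT contrast 73.9% were called (34.6% higher and 39.3% lower), and in the sums 27.4% (14.9% higher and 12.5% lower). On library totals all of the fraction contrast values named here were positive in D146N and negative in WT, so those of DIS3L2 and C1D change sign with the scaling.

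Among the members, the profiles over the 8 groups were closest for EXOSC9 and EXOSC6, with a Euclidean distance of 0.282 between their centred log2 group means, and farthest apart for EXOSC9 and EXOSC1, at 4.46. Among the 3836 other genes with at least 10 CPM after TMM, the profiles nearest to EXOSC1, the member highest in the WT contrast, were those of NUTF2 (distance 0.159), MYL12B (0.172) and EMC9 (0.186). For EXOSC9, the lowest in the WT contrast, they were NAP1L1 (0.145), SCARB2 (0.148) and PKM (0.163). Nearness here is a description over 8 group means of 3 libraries each.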

How the data were processed

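RNA was measured by sequencing of ribosomal RNA depleted libraries (KAPA RiboErase and RNA HyperPrep on a NovaSeq, per the labels' protocols) from 4 gradient fractions of 2 genotypes, 3 libraries each. The authors deposited estimated counts per gene for 61853 Ensembl gene rows, not normalized, and whole to within 0.005 in 73.3% of the nonzero cells and within 0.01 of a sixth in 97%. They were rounded before fitting. The submitters' processing notes list HISAT2 2.1.0, Bowtie2 2.3.5, featureCounts 1.5.1 and SAMtools with the build hg38; how reads shared between genes were divided is not given in the sources used here. Symbols matched 99.84% of rows through the gene name table.

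Groups followed the sample titles. Fold changes came from edgeR 4.0.16 (R 4.3.3): genes were kept with filterByExpr, scaled by TMM and fitted with 1 mean per group over all 24 libraries by the robust quasi-likelihood method, and p-values were adjusted by Benjamini-Hochberg over all 18907 genes tested and called under 0.05. The SE is the size of the log2 fold change over the square root of F. The common biological coefficient of variation was 13.8%. The script was tested on simulated counts that shared 1 expression profile, apart from some changed genes in 1 group. That test held no broad difference between groups like the one seen here, so it does not cover the scaling. Shares used exact permutation tests. No molecular identifiers are mentioned in the labels, so depth gives counting precision only. Named genes were all 10 members, pathway genes past the test, and the 3 nearest profiles at each end. Members, lists and contrasts were chosen with earlier results of these data known. Alternatives were library totals, median-of-ratios factors, no filter, the 50 most abundant rows left out, DESeq2 1.42.0, limma 3.58.1 voom, only the libraries compared, a replicate block, each library left out, shares without EXOSC10 and, added after seeing the data, library totals without WT fraction 8 replicate 3. EXOSC1 and EXOSC4 had no entry in the promoter table. Transcript lengths and protein sequences were not used here.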

Additional observations from a re-analysis of the deposited data

Results flagged for a closer look

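The fraction contrast differed between D146N and WT for 9 of the 10 EXOSC mRNAs, by a direct test of the difference (the interaction, edgeR's quasi-likelihood test, D146N minus WT, log2 after TMM). It was -4.24 for EXOSC1, -0.89 for EXOSC2, -0.68 for EXOSC3, -2.48 for EXOSC4, -1.23 for EXOSC5 and -2.67 for EXOSC8, all of which turn positive on library totals. For EXOSC6 it was 1.87, for EXOSC9 1.96 and for EXOSC10 0.92, positive on both scales. Of all genes tested 77.1% passed the same test.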

How the results depend on the processing

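Library totals in place of TMM turned 47 of 140 values round. On totals D146N against WT in fraction 3 was -0.68 (EXOSC1), -2.36 (EXOSC2), -2.38 (EXOSC3), -1.22 (EXOSC4), -2.17 (EXOSC5), -2.62 (EXOSC7), -1.61 (EXOSC8); in fraction 4 -0.62 (EXOSC1), -2.35 (EXOSC2), -2.15 (EXOSC3), -1.42 (EXOSC4), -2.04 (EXOSC5), -2.64 (EXOSC7), -1.38 (EXOSC8); in fraction 7 0.91 (EXOSC1), 2.47 (EXOSC2), 2.77 (EXOSC3), 1.92 (EXOSC4), 2.61 (EXOSC5), 1.6 (EXOSC8); and in fraction 8 0.47 (EXOSC1), 2.23 (EXOSC2), 2.53 (EXOSC3), 1.65 (EXOSC4), 1.81 (EXOSC5), 2.48 (EXOSC7), 1.26 (EXOSC8). Fractions 7 and 8 against 3 and 4 were 1.06 (EXOSC1), 2.61 (EXOSC2), 2.67 (EXOSC3), 1.88 (EXOSC4), 2.53 (EXOSC5), 1.75 (EXOSC8) in D146N and -0.28 (EXOSC1), -2.09 (EXOSC2), -2.24 (EXOSC3), -1.22 (EXOSC4), -1.79 (EXOSC5), -2.5 (EXOSC7), -1.18 (EXOSC8) in WT, and the interaction was 1.34 (EXOSC1), 4.71 (EXOSC2), 4.91 (EXOSC3), 3.1 (EXOSC4), 4.32 (EXOSC5), 5.49 (EXOSC7), 2.93 (EXOSC8). On totals without WT fraction 8 replicate 3, added after seeing the data, D146N against WT in fraction 8 was 0.83 (EXOSC1), 2.46 (EXOSC2), 2.78 (EXOSC3), 2.05 (EXOSC4), 3.05 (EXOSC5), 3.08 (EXOSC7), 1.43 (EXOSC8), fractions 7 and 8 against 3 and 4 in WT were -0.46 (EXOSC1), -2.21 (EXOSC2), -2.36 (EXOSC3), -1.42 (EXOSC4), -2.41 (EXOSC5), -2.80 (EXOSC7), -1.26 (EXOSC8), and the interaction was 1.52 (EXOSC1), 4.82 (EXOSC2), 5.04 (EXOSC3), 3.30 (EXOSC4), 4.94 (EXOSC5), 5.79 (EXOSC7), 3.02 (EXOSC8). A change of sign between values that both missed the threshold was not counted. Apart from 1 left-out library, the other alternatives turned no fold change round. Without 1 library, EXOSC5 in D146N against WT in fraction 8 ran from -1.05 to 0.19. Log2 share differences, D146N minus WT, ran over left-out libraries from -0.21 to 0.0441 for EXOSC3 in fraction 3, -0.0813 to 0.19 for EXOSC5 in fraction 3, -0.23 to 0.29 for EXOSC3 in fraction 4 and -0.14 to 0.70 for EXOSC5 in fraction 8. With EXOSC10 out of the denominator, EXOSC3 in fraction 4 was -0.0896 and EXOSC5 in fraction 3 was -0.0240. Calls in D146N fractions 7 and 8 against WT fractions 3 and 4 numbered 3 (2 higher, 1 lower), but 5 on totals (all higher), 5 with limma voom and 6 with only the libraries compared. In D146N fractions 3 and 4 against WT fractions 7 and 8 there were 4, but 2 with no filter. In the sums there were 4, and 2 to 5 with 1 sum left out. Of the other values, 137 of 140 kept their side of the threshold, and their direction where called, with the 50 most abundant rows left out. The same held for 137 with median-of-ratios factors, 136 with no filter, 134 with DESeq2, 138 with limma voom, and 109 of 120 with only the libraries compared. The cause was not tested. Same-numbered libraries of a genotype did not deviate together (median correlation 0.00148, and 10 of 24 libraries closest to their own number). The replicate block gave 7, 8, 7 and 8 calls in D146N against WT in fractions 3, 4, 7 and 8, 7 and 9 in the fraction contrasts of D146N and WT, 9 in the interaction, 3 and 4 in the contrasts across labels and 4 in the sums, and moved none of 140 values across the threshold. Leaving out 1 library of D146N fractions 7 and 8 or WT fractions 3 and 4 gave a median of all genes in the interaction of 0.57 to 0.59, in place of 0.33. Depth limits the scarcest groups, where a member had as few as 31 counts.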
